A study of Mus musculus with 28 samples.

Results

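Memory-like and naive-like PD-1-negative CD8+ T cells from tumours were compared over 11 of the 28 samples of the series, 5 memory-like and 6 naive-like libraries. The cells were lymphocytes that had entered tumours (TILs) in mice of the C57BL/6 strain and wild type genotype. The tumours were MC38-OVA, a colon carcinoma line that carries ovalbumin as a model antigen. All were sorted as PD-1-CD8+ cells. The members were chosen by their sort labels: memory-like cells were Slamf7hiCX3CR1- and naive-like cells Slamf7-CX3CR1-, with a further sorted marker that is not reported here. Another sorted population, effector-like cells (Slamf7hiCX3CR1+, 3 libraries), is used below only where it shows how far memory-like cells lay from it. The mice of these groups had no labelled treatment beyond the tumour, and their age is not given in the sources used here. Each library came from lysate of about 2000 cells and was made with an adapted SMART-Seq2 protocol, which copies full-length polyadenylated RNA and amplifies it by PCR. The labels do not say whether libraries of a group came from separate animals, so every p-value reflects no more than the spread among these libraries, which may be technical. The names of 2 effector-like libraries carry 3 numbers each, and whether these mark pools is not stated. Some memory-like and naive-like library names share a number, and whether this marks the same mice is not stated either.

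Naive CD8 T cells circulate through lymph nodes, which they enter with the help of CCR7 and leave through the receptor for sphingosine-1-phosphate, and they are held at rest by transcription factors such as TCF-1, LEF-1, BACH2 and FOXP1. After antigen, they divide, switch to receptors for inflamed tissue and make granzymes and cytokines. Memory cells keep part of the naive program together with a fast recall of effector functions. PD-1-negative cells in a tumour can include both antigen-experienced cells and cells that have not met antigen there.

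Depth was 5474899 to 6527589 expected counts per memory-like library and 6689348 to 7978932 per naive-like library. Values below are CPM, counts scaled to library sizes that TMM had corrected, and a log2 fold change is memory-like minus naive-like with its standard error. Of 12388 genes tested, 683 (5.51%) passed at an adjusted p under 0.05 (edgeR's quasi-likelihood test, Benjamini-Hochberg). Of these, 345 (2.78%) were higher and 338 (2.73%) lower in memory-like cells, with median log2 fold changes of 1.25 and -0.76. More than 2-fold differences were found for 210 of the higher and 103 of the lower genes. Without memory-like library 1 the counts were 160 higher and 180 lower, without memory-like 3 they were 231 and 198, and without memory-like 4 they were 224 and 244. In all, 300 genes passed in the same direction whichever of the 11 libraries was left out. Rn45s, the precursor of ribosomal RNA, made up 17.8 to 20.7% of naive-like and 12.6 to 17.4% of memory-like counts, with no overlap. Without Rn45s, 395 genes were higher and 292 lower, which raised the share of higher genes among those called from 50.5% to 57.5%. A date in the library names differs between naive-like and memory-like libraries, and it cannot be told apart from the group. Memory-like 2, naive-like 4 and naive-like 6 correlated least with their own groups, and 417 genes were higher and 411 lower without these 3 libraries.

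**Figure D1:**
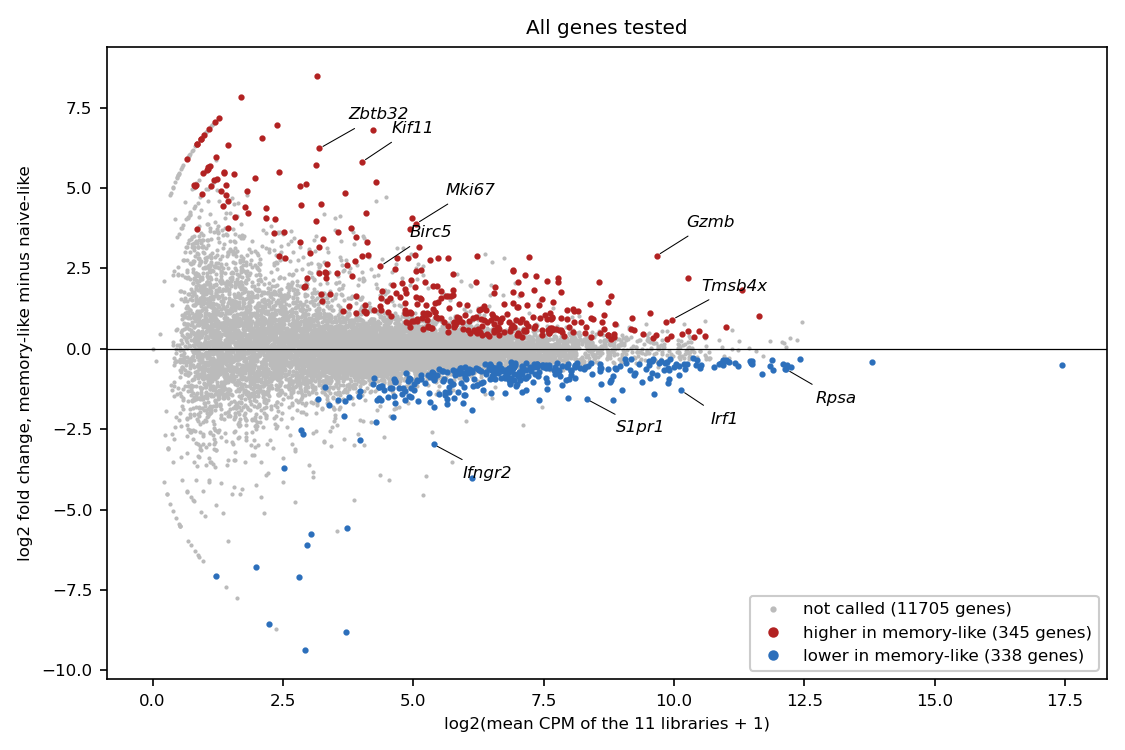
Log2 fold change of memory-like minus naive-like cells (vertical axis) against the log2 of the mean CPM plus 1 over the 11 libraries (horizontal axis), 1 point per gene tested. The 345 higher genes (red) reach larger fold changes than most of the 338 lower genes (blue), which extend to the most abundant transcripts, and 10 genes described in the text are named.

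The sort itself was checked first. Where the gates for a protein differed, as for Slamf7, the direction of its mRNA is bound to them and is not a finding. Both populations had the same PD-1, CX3CR1 and CD8 gates, which fix no direction for Pdcd1, Cx3cr1 or Cd8a. Slamf7, a SLAM family receptor, was at 103, 29.2, 75.7, 101 and 104 CPM in memory-like libraries 1 to 5 and 12.8, 22.6 and 36.1 CPM (lowest, median and highest of 6) in naive-like libraries (1.83 ± 0.31, adjusted p = 0.00335), and only memory-like 2 lay within the naive-like range. In these bulk libraries, fewer cells with an mRNA and less of it per cell cannot be told apart.

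Pdcd1, which encodes PD-1, was transcribed in both populations although both were sorted as PD-1-negative. It was at 47.7, 35.9, 40.6, 47.1 and 31.6 CPM in memory-like and 5.1, 16.5 and 23.5 CPM in naive-like libraries, without overlap (1.43 ± 0.32, adjusted p = 0.0165). Cx3cr1 was low in both CX3CR1-negative gates, at 3.48, 20.2, 12.5, 7.52 and 19.5 CPM in memory-like and 0, 0.39 and 5.71 CPM in naive-like libraries, against 269.5, 249.99 and 406 CPM in effector-like libraries. Its difference between memory-like and naive-like cells (2.99 ± 0.75, adjusted p = 0.0306) did not pass without any 1 of memory-like 2, 3 or 5 or naive-like 2, where the adjusted p was 0.0522 to 0.0635. Cd8a, the alpha chain of the co-receptor, was higher in memory-like cells (747, 657, 570.1, 743 and 754 CPM) than in naive-like cells (423, 461 and 490.4 CPM), 0.60 ± 0.11, adjusted p = 0.00383. Its partner Cd8b1 (0.27 ± 0.13, adjusted p = 0.258) and the CD3 epsilon gene Cd3e (0.06 ± 0.12, adjusted p = 0.86) did not pass. Of 11 T cell identity genes tested, Cd8a alone was called.

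**Figure D2:**
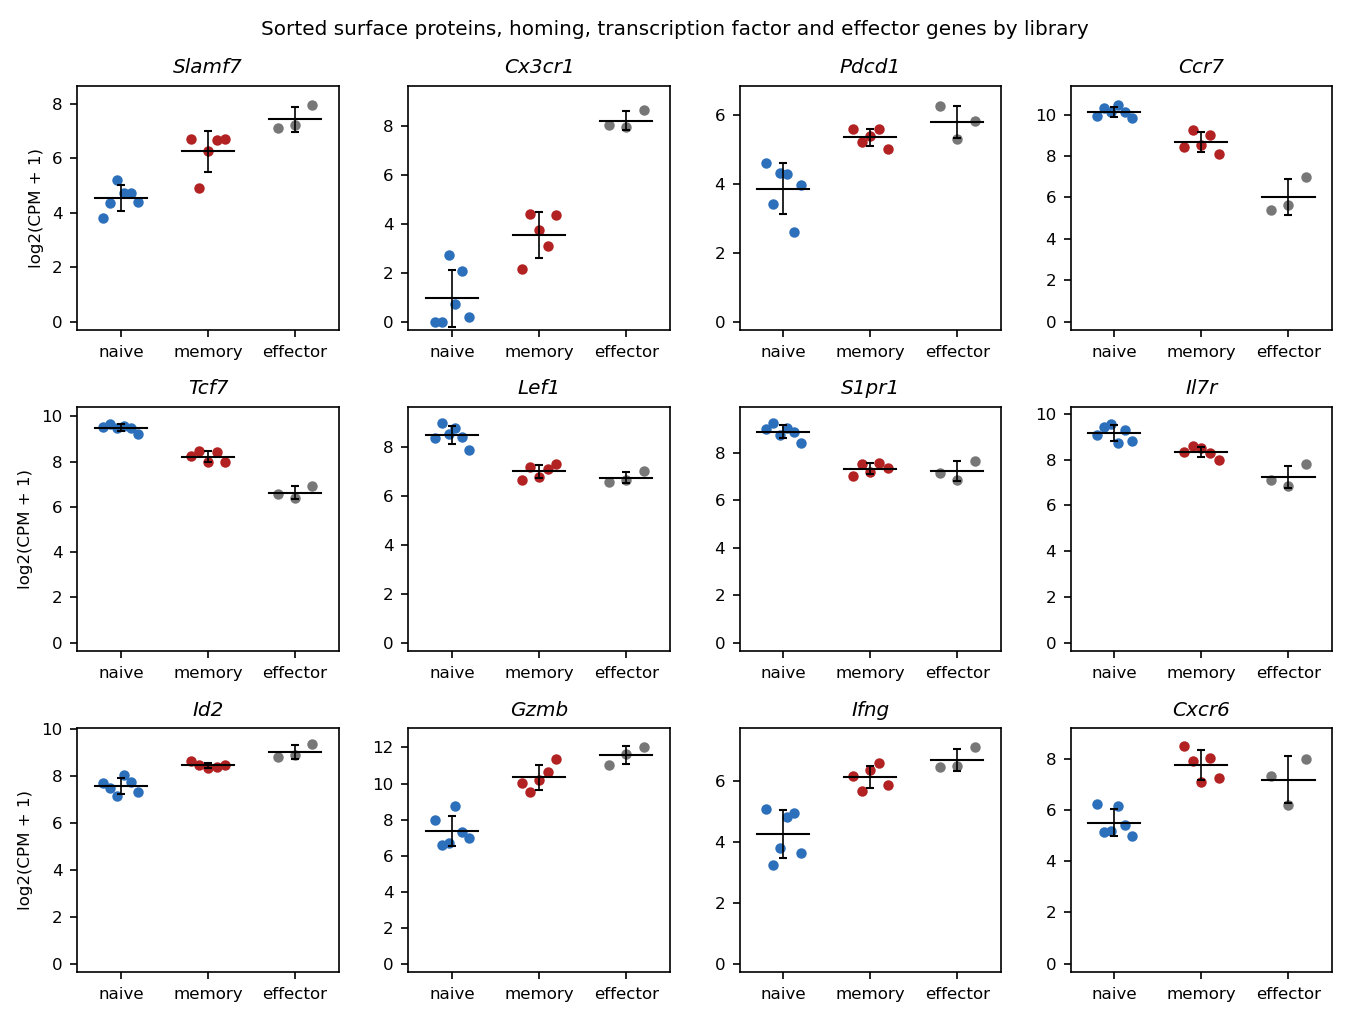
Log2(CPM + 1) of 12 genes in each library of naive-like (blue, 6), memory-like (red, 5) and effector-like (grey, 3) cells, with the mean (long bar) and SD (whiskers). Ccr7, Tcf7 and Il7r stepped down from naive-like to memory-like and again to effector-like cells, whereas Lef1 and S1pr1 lay at similar levels in memory-like and effector-like cells.

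The shares of all genes tested, 2.78% higher and 2.73% lower, are the measure for this and the later list counts. Of 29 genes of naive T cells and of lymph node homing tested, 13 were lower and 16 did not pass, with none higher. The 13 include the gene of a sorted marker. In the list, the median log2 fold change was -0.97 against -0.01 over all genes. All 29 had a negative fold change, and the count of lower genes ranged from 10 to 17 when 1 library was left out. Tcf7, which encodes TCF-1, was at 306, 349, 253, 345 and 250.21 CPM in memory-like and 592, 733 and 808 CPM in naive-like libraries. The groups did not overlap (-1.27 ± 0.13, adjusted p = 0.00022). Lef1, the related factor, fell as well, from 238, 358 and 502 CPM to 101, 146, 109, 135 and 157 CPM (-1.52 ± 0.18, adjusted p = 0.00035). S1pr1, the receptor that lets T cells leave lymph nodes and tissue, was at 129, 182, 142, 191 and 163 CPM against 342, 488 and 603 CPM (-1.57 ± 0.17, adjusted p = 0.00022). Ccr7, the lymph node homing receptor, was at 341, 613, 372, 527 and 277 CPM against 909.9, 1131 and 1427 CPM (-1.42 ± 0.27, adjusted p = 0.00693). For none of these genes did a memory-like library reach the lowest naive-like one.

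The resting-state repressor gene Bach2 was at 26.1, 30, 24.1, 40.1 and 18.9 CPM in memory-like and 61.7, 83.9 and 93.2 CPM in naive-like libraries (-1.52 ± 0.23, adjusted p = 0.00165). Foxp1, which keeps naive T cells quiescent, was at 152, 174, 169, 176 and 174 CPM against 235, 274 and 312 CPM (-0.68 ± 0.11, adjusted p = 0.00189). Both fell without overlap between the groups. Il7r, the survival receptor shared by naive and memory T cells, was lower in memory-like cells, at 326, 385, 359, 317 and 252 CPM against 429, 581 and 766 CPM (-0.83 ± 0.19, adjusted p = 0.0183), a call that ended without memory-like 1 (adjusted p = 0.051). Other genes of the same kind did not pass: Klf2, which drives S1pr1, had -0.88 ± 0.25 (adjusted p = 0.0526), Foxo1 -0.57 ± 0.18 (adjusted p = 0.0822) and Id3, an inhibitor of E proteins, -0.96 ± 0.31 (adjusted p = 0.0854). Id3 did not overlap between the groups, at 30.1, 19.7, 50.3, 48.7 and 34.9 CPM against 51.1, 72.6 and 101 CPM. Over all genes, 2.9% had all memory-like libraries below all naive-like ones.

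Of 28 transcription factors of effector and memory cells tested, 8 were higher, 1 was lower and 19 did not pass, and 9 of the 28 had a negative fold change (median 0.32). The higher genes include Irf8 and Runx2, which are also on the list of plasmacytoid dendritic cell markers described below, and 4 were higher without memory-like 3 and 5, the libraries richest in those markers. The count was 5 without any 1 of memory-like 1, 4 and 5 or naive-like 1, 2, 5 and 6. Id2, which antagonises E proteins and is needed by effector cells, was at 388, 345, 322, 324 and 347 CPM in memory-like and 137, 192 and 263 CPM in naive-like libraries (0.84 ± 0.15, adjusted p = 0.00482). Bhlhe40, a repressor linked to cytokine production and tissue residency, was at 515, 265, 345, 385 and 359.9 CPM against 103, 175 and 204 CPM (1.18 ± 0.21, adjusted p = 0.00407). Hif1a, the oxygen-regulated factor that also follows T cell receptor signals, was at 428, 484, 355, 449 and 544 CPM against 214, 232 and 292 CPM (0.91 ± 0.11, adjusted p = 0.000406). All 3 rose without overlap, as did 2.87% of all genes. Zbtb32, which restrains T cell responses, was found in every memory-like library, at 15.2, 7.54, 14.5, 19.7 and 24 CPM, and among naive-like libraries in number 1 alone, at 1.17 CPM (adjusted p = 0.00247).

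Tbx21, which encodes T-bet, and Prdm1, which encodes BLIMP-1, were near the threshold. Tbx21 was at 181, 129, 127, 216 and 187 CPM against 72, 84.5 and 159 CPM (0.83 ± 0.22, adjusted p = 0.0438), and its call ended without any 1 of 8 libraries. Prdm1 was at 25.4, 18.4, 22.7, 14.9 and 24.7 CPM against 0.49, 7.58 and 9.76 CPM (1.63 ± 0.44, adjusted p = 0.0427), and its call ended without any 1 of 10 libraries. Eomes, the other T-box factor, did not pass, at 33.1, 40.7, 24.9, 28.5 and 13 CPM against 7.02, 23 and 32.4 CPM (adjusted p = 0.591). Neither did Tox, a factor of chronically stimulated cells (-0.93 ± 0.49, adjusted p = 0.317), or Zeb2, a factor of terminal effector cells (1.07 ± 0.58, adjusted p = 0.33). Ikzf2, which encodes HELIOS, was at 65.3, 83.5, 77.2, 82.5 and 98.1 CPM in memory-like and 74.1, 100.4 and 156 CPM in naive-like libraries (adjusted p = 0.321), while effector-like libraries held 13.5, 7.72 and 8 CPM (-3.05 ± 0.30, adjusted p = 7.17e-05 against memory-like cells).

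Of 21 granule genes tested, 9 were higher, 12 did not pass and none was lower. All 21 had a positive fold change, with a median of 0.53. Gzmb, the main cytotoxic protease, was at 1023, 737, 1171, 1576 and 2645 CPM in memory-like and 96.3, 140.1 and 425 CPM in naive-like libraries (2.89 ± 0.41, adjusted p = 0.00106). Gzma, a tryptase-like granzyme, was at 181, 157, 249, 167 and 256 CPM against 14.2, 32.9 and 65 CPM (2.46 ± 0.28, adjusted p = 0.00022), and Gzmk, a granzyme of less differentiated memory cells, at 93.2, 40.7, 57.2, 47.4 and 61.9 CPM against 1.51, 6.42 and 13.7 CPM (3.15 ± 0.42, adjusted p = 0.000585). Every memory-like library lay above every naive-like one for the 3 granzymes, and for Gzmm (1.62 ± 0.21, adjusted p = 0.000548) and the granule membrane gene Nkg7 (0.82 ± 0.12, adjusted p = 0.00134). The pore-forming gene Prf1 was at 78.7, 113, 89.8, 79.1 and 175 CPM against 37.2, 56.6 and 92.6 CPM, short of the threshold (0.89 ± 0.27, adjusted p = 0.0637).

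Among cytokines, chemokines and death ligands, 9 of 22 tested were higher and none lower. Ifng was at 69.7, 49.3, 79.7, 93.8 and 56.8 CPM in memory-like and 8.3, 19.9 and 32.8 CPM in naive-like libraries, without overlap (1.78 ± 0.33, adjusted p = 0.00578). Tnf was at 64.1, 33.8, 54.2, 73.4 and 62.6 CPM against 14.2, 26.9 and 38.4 CPM (1.13 ± 0.25, adjusted p = 0.0159), with memory-like 2 inside the naive-like range. The chemokine genes Ccl4 (170.0, 210.1, 317, 387 and 264 against 30, 51.9 and 98.6 CPM, 2.26 ± 0.28, adjusted p = 0.000406) and Ccl3 (1.92 ± 0.38, adjusted p = 0.00873), which attract leukocytes, were higher. So were the death ligand gene Fasl (1.29 ± 0.28, adjusted p = 0.0139) and Tnfsf14 (1.6 ± 0.27, adjusted p = 0.00321), which encodes LIGHT. Ccl5, a chemokine gene of memory and effector cells, was abundant in both populations, at 1640.3, 1116, 1487, 1392 and 1474 CPM against 805, 1094 and 1337 CPM, and was not called (0.40 ± 0.14, adjusted p = 0.12). Il2 was listed at 2.44, 0, 19.1, 6.62 and 0.153 CPM in memory-like libraries and at no more than 0.584 CPM in naive-like ones (adjusted p = 0.0472), and its call ended without any 1 of naive-like 2 to 6 (adjusted p up to 0.0895).

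Of 18 chemokine and egress receptor genes tested, 7 were higher in memory-like cells, 2 (S1pr1 and Ccr7) were lower and 9 did not pass. The 7 include the sorted Cx3cr1 and Ccr9, a plasmacytoid marker, and 4 were higher without the 3 libraries that stood apart and 4 without memory-like 3 and 5. Cxcr6, which holds T cells near CXCL16-bearing cells, was at 366, 244, 137, 263 and 154 CPM in memory-like and 30.5, 38.5 and 74 CPM in naive-like libraries (2.29 ± 0.35, adjusted p = 0.00158). Ccr2, the monocyte chemoattractant receptor, was at 234, 159, 89.4, 105 and 125 CPM against 27, 48.2 and 55.1 CPM (1.72 ± 0.26, adjusted p = 0.00171). The groups overlapped for neither. Cxcr3, the receptor for interferon-induced chemokines, was at 254, 254, 180.3, 236 and 207 CPM against 92.2, 106 and 181 CPM (0.96 ± 0.20, adjusted p = 0.0103), with naive-like 1 just above the lowest memory-like library, and the adjusted p was 0.0528 without the 3 libraries that stood apart.

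Of 24 integrin and retention genes, 4 were higher and 2 lower, 1 of these the gene of a sorted marker. Itgal, the LFA-1 alpha chain, was at 867, 771, 609.5, 826 and 794 CPM in memory-like and 329, 388 and 491 CPM in naive-like libraries (0.97 ± 0.13, adjusted p = 0.000592). Itgb1, the beta chain of the fibronectin and collagen receptors, was at 273, 254, 229, 309 and 266 CPM against 67.6, 122 and 176 CPM (1.11 ± 0.19, adjusted p = 0.00383), and Itgax (CD11c) at 96.2, 57.4, 74.4, 49.6 and 102 CPM against 0, 10.8 and 21.3 CPM (2.83 ± 0.62, adjusted p = 0.0156). Cd44, Il2rb, Cd69, Itgae and Itga1, used as marks of antigen experience or residency, did not pass, whereas Bhlhe40, linked to residency above, did. Cd44 was at 297, 343, 381, 305 and 514 CPM against 220.0, 331 and 412 CPM (adjusted p = 0.699), and Il2rb, the IL-15 receptor beta chain, at 1005, 951, 953, 1304 and 1389 CPM against 893, 1151 and 1211 CPM (adjusted p = 0.914). Cd69 was high in both, at 1318 ± 71.1 against 1289.6 ± 231 CPM (adjusted p = 0.95). The residency integrin genes had wide spreads: Itgae was at 12.4, 1.84, 4.68, 6.98 and 27.3 CPM against 10.2, 43.2 and 68.9 CPM (adjusted p = 0.136) and Itga1 at 15.6 ± 7.09 against 6.85 ± 5.79 CPM (adjusted p = 0.348). The log2 fold changes of Cd44, Il2rb and Cd69 were 0.19 ± 0.22, 0.04 ± 0.15 and 0.03 ± 0.17.

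Of 23 killer lectin-like receptor genes tested, 3 were higher and none lower. Klrc1, which encodes the inhibitory NKG2A, was at 209.6, 196, 173, 188 and 155 CPM in memory-like and 27.2, 54 and 73.4 CPM in naive-like libraries (1.77 ± 0.24, adjusted p = 0.000729). Klrk1, the activating NKG2D, was at 609.9, 534, 440.1, 436 and 410.2 CPM against 119, 164 and 335 CPM (1.4 ± 0.23, adjusted p = 0.00284). Klrg1, a mark of terminal effector cells, was low but present in each memory-like library (8.19, 9.75, 8.86, 11.6 and 20.7 CPM) and at or below 2.1 CPM in naive-like ones (4.46 ± 0.66, adjusted p = 0.0014), against 124, 114 and 193 CPM in effector-like libraries. Klra7, a Ly49 gene whose family holds near-identical copies that split reads, was at 227, 154, 204, 258 and 229.9 CPM against 176, 279 and 301 CPM and missed the threshold at an adjusted p of 0.613.

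Genes of inhibitory receptors and of other inhibitory proteins were higher for 7 of 23 tested, with none lower. Without memory-like 1 or without memory-like 3, 4 were higher. Without memory-like 3 and 5, the libraries richest in plasmacytoid markers, 2 were higher. The 7 include the sorted Pdcd1. Lag3, which binds MHC class II, was at 97.7, 79.3, 96.3, 50.5 and 110.2 CPM in memory-like and 0.163, 11.3 and 34.4 CPM in naive-like libraries (2.82 ± 0.62, adjusted p = 0.0159). Fgl2, a fibrinogen-like immunoregulatory protein gene, was at 169.5, 349, 157, 157 and 170.0 CPM against 12.4, 42.6 and 46.9 CPM (2.4 ± 0.33, adjusted p = 0.000873). Its highest library, memory-like 2, also had the most myeloid marker RNA among memory-like libraries (summed 2274 CPM), and its call held without each library in turn. Lilrb4 (1.35 ± 0.22, adjusted p = 0.00286) and its near-identical copy Gp49a (1.53 ± 0.20, adjusted p = 0.000585) moved alike, and reads of these 2 genes may not be separable. Among co-stimulatory receptor genes, 5 of 23 were higher, the sorted Slamf7 among them, and 1 lower. Tnfrsf9, which encodes the activation-induced 4-1BB, was at 233, 234, 208, 259 and 375 CPM against 10.2, 23.1 and 122 CPM (2.86 ± 0.52, adjusted p = 0.00538). The highest naive-like value was that of naive-like 4. The SLAM family genes Slamf1 (117, 137, 90.3, 116 and 127 against 12.7, 27.6 and 43.4 CPM, 2.07 ± 0.27, adjusted p = 0.00055) and Cd48 (0.93 ± 0.16, adjusted p = 0.00383) were higher, as was the sorted Slamf7. Among memory-like libraries, number 2 had the lowest Slamf7 (29.2 CPM) but the highest Slamf1 and Cd48 (319 CPM).

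Cytokine receptors split. Of 27 tested, 4 were higher and 5 lower, with 2 higher without memory-like 1 or memory-like 4 and 2 lower without memory-like 1. Il2ra, the inducible chain of the high-affinity IL-2 receptor, was at 49.1, 24.6, 16.4, 23.8 and 34.2 CPM in memory-like and 0.326, 2.07 and 9.57 CPM in naive-like libraries (3.32 ± 0.64, adjusted p = 0.00718). Il10ra, the IL-10 receptor chain, was at 153, 209, 135, 166 and 233 CPM against 41.8, 80.6 and 87.1 CPM (1.3 ± 0.20, adjusted p = 0.00171). In contrast, Ifngr2, the signalling chain of the interferon-gamma receptor, was at 4.88, 4.6, 21.1, 5.19 and 10.4 CPM in memory-like and 44.1, 67.5 and 103 CPM in naive-like libraries (-2.97 ± 0.43, adjusted p = 0.00128). The highest memory-like library, number 3, lay well below the lowest naive-like one. Il17ra was also lower, at 148, 148, 169, 190.2 and 168 CPM against 257, 319 and 386 CPM (-0.96 ± 0.14, adjusted p = 0.00129). Il4ra fell from 688, 784 and 824 CPM to 324, 435, 426, 509 and 566 CPM (-0.76 ± 0.17, adjusted p = 0.0183), but did not pass without memory-like 1 (adjusted p = 0.054) or memory-like 3 (adjusted p = 0.0506).

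Genes that cytokine signals induce through JAK and STAT proteins, and that feed back on those signals, were lower more often than higher. Of 21 cytokine feedback genes tested, 4 were lower, 1 was higher and 16 did not pass. Socs3, an inhibitor of receptors of the IL-6 family, was at 443, 438, 403, 428 and 470.4 CPM in memory-like and 742, 927 and 1079 CPM in naive-like libraries (-1.04 ± 0.13, adjusted p = 0.000406). Socs1, the inhibitor of interferon and common gamma chain signals, was at 59.6, 68.6, 73.4, 87.7 and 63.8 CPM against 105, 125 and 187 CPM (-0.91 ± 0.19, adjusted p = 0.0126). The kinase genes Pim3 (-0.74 ± 0.13, adjusted p = 0.00405) and Jak1 (-0.61 ± 0.11, adjusted p = 0.00498) were lower as well. None of these 4 overlapped between the groups. Irf1, the interferon-induced transcription factor gene, was at 594, 532, 710.3, 687 and 733 CPM against 1385, 1584 and 1968 CPM (-1.3 ± 0.14, adjusted p = 0.00022). Cish, a feedback inhibitor induced by IL-2, moved the opposite way, at 183, 93.3, 109.8, 216 and 143 CPM against 49.8, 73.1 and 90.1 CPM (1.09 ± 0.24, adjusted p = 0.0173), though its call ended without memory-like 1 (adjusted p = 0.053) or memory-like 4 (adjusted p = 0.0505).

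The promoters of the feedback list and of Irf1 were searched for the STAT-type palindrome TTCNNNGAA, a motif chosen after these values were seen. Among the 21 promoter windows of 17 matched genes, 3 (14.3%) held it, against 8.3% of all 32851 windows of the same 300 bases (250 before to 50 after the start). Of the 5 lower genes, 2 held it, Irf1 and Socs3, while Socs1, Pim3 and Jak1 did not. Cish, the gene that rose, held it starting at 0 and 11 bases from the start site. The motif thus stood in promoters of genes that fell and of the gene that rose. The 2 windows of lower genes that held it are shown with the motif in capitals (RefSeq, GRCm38.p6). That of Irf1 lies at chr11:53769764-53770063 on the plus strand, with the motif starting 90 bases before the start site, and that of Socs3 at chr11:117969317-117969616 on the minus strand, with the motif starting 154 bases before it.
Irf1: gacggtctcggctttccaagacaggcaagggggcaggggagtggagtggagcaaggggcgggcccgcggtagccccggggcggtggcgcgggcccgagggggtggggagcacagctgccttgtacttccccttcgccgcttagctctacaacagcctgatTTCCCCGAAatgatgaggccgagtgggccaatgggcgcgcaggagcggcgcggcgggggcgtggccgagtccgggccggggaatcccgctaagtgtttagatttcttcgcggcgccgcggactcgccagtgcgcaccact
Socs3: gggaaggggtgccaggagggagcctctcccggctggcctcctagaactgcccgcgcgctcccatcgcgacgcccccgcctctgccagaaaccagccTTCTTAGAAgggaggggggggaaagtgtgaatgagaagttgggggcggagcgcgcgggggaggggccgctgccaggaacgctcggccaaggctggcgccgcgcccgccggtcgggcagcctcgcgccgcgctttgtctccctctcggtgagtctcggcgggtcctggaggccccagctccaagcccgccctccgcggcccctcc

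Immediate early genes, which cells transcribe quickly after stimulation, were lower for 5 of 27 tested and higher for none. The other 22 did not pass, and 9 of the 27 had a positive fold change (median -0.23). Without memory-like 1 or memory-like 3, 3 were lower. Dusp10, a phosphatase of stress kinases, was at 61.2, 116, 79.1, 91.1 and 76.1 CPM in memory-like and 197, 255 and 320.5 CPM in naive-like libraries (-1.59 ± 0.17, adjusted p = 0.00022). Junb, an AP-1 subunit gene, was at 2698, 2281, 2327, 2582 and 2233 CPM against 3346, 4223 and 4603 CPM (-0.77 ± 0.12, adjusted p = 0.00261). Ppp1r15a, a stress-induced phosphatase subunit gene, was lower too (-0.67 ± 0.12, adjusted p = 0.00577). The 20 heat shock and folding genes had a median log2 fold change of 0.04, and edgeR called none of them. Of 30 T cell receptor signalling genes, 1 was lower (3.33%, near the 2.73% of all genes) and none higher.

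**Figure D3:**
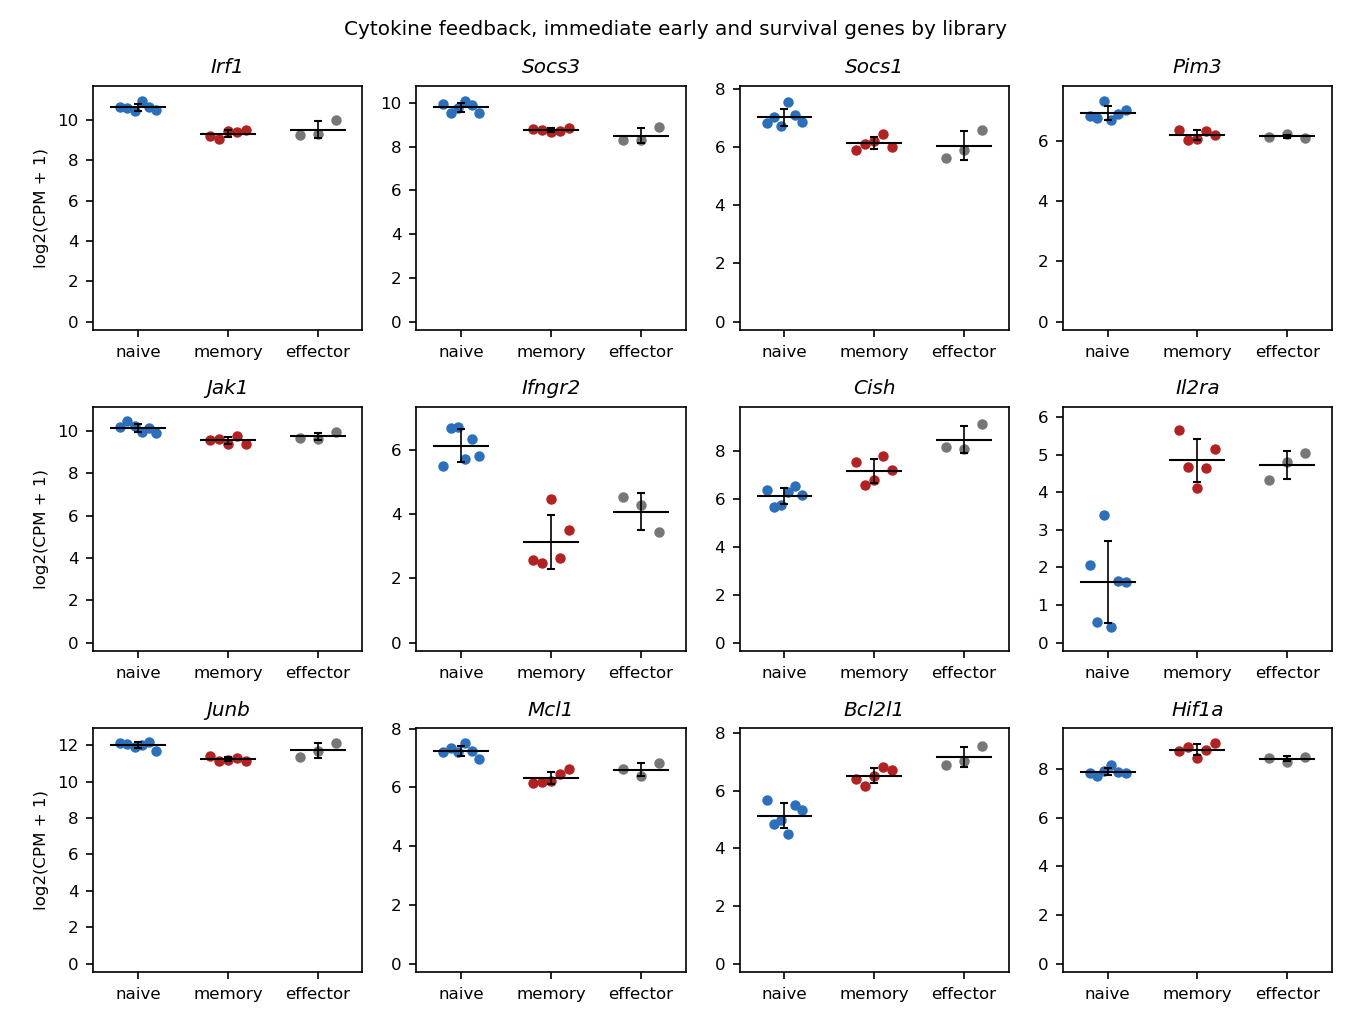
Log2(CPM + 1) of 12 genes in each library of naive-like (blue, 6), memory-like (red, 5) and effector-like (grey, 3) cells, with the mean (long bar) and SD (whiskers). Irf1, Socs3, Socs1, Pim3, Jak1, Ifngr2, Junb and Mcl1 were lower in all 5 memory-like than in all 6 naive-like libraries, and Cish, Il2ra, Bcl2l1 and Hif1a were higher.

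Of 18 survival genes of the BCL-2 family tested, 3 were higher and 1 lower, the same counts whichever of the 11 libraries was left out. Bcl2a1b and Bcl2a1d, copies of the anti-apoptotic gene A1 that are nearly identical and whose reads may be shared between them, were at 137, 181, 131, 162 and 128 and 78.9, 36.6, 44.5, 59.1 and 50.8 CPM in memory-like libraries. In naive-like libraries they were at 20.8, 39.7 and 51.9 and 3.82, 8.13 and 21.9 CPM (log2 fold changes of 1.92 ± 0.22, adjusted p = 0.00022, and 2.43 ± 0.35, adjusted p = 0.00128). Bcl2l1, which encodes the anti-apoptotic BCL-XL, was at 83.5, 71, 89.9, 113 and 104 CPM against 21.5, 35.1 and 50.7 CPM (1.36 ± 0.21, adjusted p = 0.00212). Mcl1, an anti-apoptotic gene with a short-lived product, fell from 125, 149 and 180.3 CPM to 69.5, 71.9, 73.7, 87.5 and 97.2 CPM (-0.92 ± 0.13, adjusted p = 0.00112). Bcl2 itself was at 405, 490.2, 419.7, 570.4 and 531 CPM against 456, 536 and 603 CPM and missed the threshold at an adjusted p of 0.597.

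Of 54 mitosis genes tested, 20 were higher and 1 was lower, and 50 of 54 had a positive fold change, with a median of 2.39. The 20 genes became 10 without memory-like 1, 12 without memory-like 2, 13 without naive-like 2, 3 or 5, and 31 without naive-like 6. Mki67, which encodes the proliferation antigen Ki-67, was at 65.5, 89.6, 53.8, 49.9 and 42.4 CPM in memory-like and 0, 4.28 and 8.66 CPM in naive-like libraries (3.88 ± 0.62, adjusted p = 0.00241). Kif11, the spindle motor, was at 23.3, 61.3, 36.6, 19 and 9.15 CPM against 0, 0.15 and 2.04 CPM (5.81 ± 0.91, adjusted p = 0.00198), and the survivin gene Birc5 at 32.9, 58.1, 29.6, 27.7 and 19.7 CPM against 2.7, 5.66 and 9.3 CPM (2.57 ± 0.37, adjusted p = 0.00128). Tpx2, a spindle assembly factor (2.72 ± 0.48, adjusted p = 0.00383), and Spc24, a kinetochore subunit (1.5 ± 0.26, adjusted p = 0.00383), rose as well. Memory-like 2 was the highest memory-like library for Mki67, Kif11, Birc5, Tpx2 and Spc24, and naive-like 6 the highest naive-like one for Mki67, Kif11, Birc5 and Tpx2. Memory-like 2 and naive-like 6 also had the most RNA of the keratin gene Krt8 in their groups (50 and 205 CPM). Memory-like 2 had the most myeloid marker RNA among memory-like libraries (summed 2274 CPM). The part of other cells in the mitosis genes was not tested. The summed level of the 54 genes was 1182 to 2896 CPM in memory-like and 985.9 to 1161 CPM in naive-like libraries, and 1511 CPM at the memory-like median. The gene that fell was Smc4, a condensin subunit that was abundant in every library, at 246, 272, 202, 263 and 251 CPM against 419, 530.2 and 625.19 CPM (-1.1 ± 0.13, adjusted p = 0.00022). Ska1, a kinetochore gene on no list, was at 3.14, 23, 7.02, 5.01 and 3.97 CPM in memory-like and at most 0.154 CPM in naive-like libraries (adjusted p = 0.000592).

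DNA replication genes were higher for 7 of 40 tested and lower for none, with a median log2 fold change of 0.91, and 14 were higher without naive-like 6. Tyms, the thymidylate synthase gene, was at 111, 89.9, 104, 80.9 and 59.7 CPM in memory-like and 10.7, 18.5 and 21.7 CPM in naive-like libraries (2.32 ± 0.26, adjusted p = 0.00022). The helicase gene Mcm2 was at 149, 174, 139, 149.6 and 192 CPM against 59.6, 87.3 and 103 CPM (0.89 ± 0.14, adjusted p = 0.00269), and the ligase gene Lig1 at 37.5, 55.7, 32.3, 57.3 and 70 CPM against 9.06, 16.6 and 25.1 CPM (1.56 ± 0.26, adjusted p = 0.00286). The summed level of the 40 genes did not overlap, at 2231 to 2605 CPM against 1357 to 1843 CPM. Of 16 cyclin and CDK inhibitor genes tested, edgeR called none.

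Mitosis genes are known to share promoter elements, a CCAAT box and the cell cycle homology region, here TTTGAA, so the promoters of the list were searched for both on both strands. In 47 windows of the 45 matched genes, TTTGAA was found in 74.5%, CCAAT in 74.5% and both in 66.0%. Over all 32851 windows of the same length the shares were 17.9%, 37.4% and 6.95%. Of the 18 windows of called higher mitosis genes, 61.1% held both. The windows of Mki67 and Kif11, the called genes with both elements and the smallest p, show their arrangement, with both elements and their reverse complements in capitals (RefSeq, GRCm38.p6). Mki67 lies at chr7:135716330-135716629 on the minus strand, with TTTGAA starting 116 and 98 bases before the start site, and Kif11 at chr19:37376132-37376431 on the plus strand, with its inverted TTTGAA starting 19 bases before the start site and the inverted CCAAT 45 bases before it.
Mki67: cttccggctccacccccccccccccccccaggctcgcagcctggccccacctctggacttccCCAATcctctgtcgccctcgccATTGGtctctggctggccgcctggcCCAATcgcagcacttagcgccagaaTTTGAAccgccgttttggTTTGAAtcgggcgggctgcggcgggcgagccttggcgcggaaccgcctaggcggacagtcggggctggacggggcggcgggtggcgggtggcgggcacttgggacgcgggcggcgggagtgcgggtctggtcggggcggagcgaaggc
Kif11: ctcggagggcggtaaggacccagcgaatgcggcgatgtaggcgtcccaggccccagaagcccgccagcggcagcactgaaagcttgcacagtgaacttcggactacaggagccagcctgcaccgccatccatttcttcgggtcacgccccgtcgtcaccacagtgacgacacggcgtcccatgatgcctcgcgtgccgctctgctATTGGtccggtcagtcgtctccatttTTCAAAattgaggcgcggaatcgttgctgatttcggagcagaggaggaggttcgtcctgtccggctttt
In 42 windows of 35 replication genes, the E2F-type sites TTTCCCGC and TTTGGCGC were found in 16.7% and 14.3%, against 1.07% and 0.514% of all windows.

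**Figure D4:**
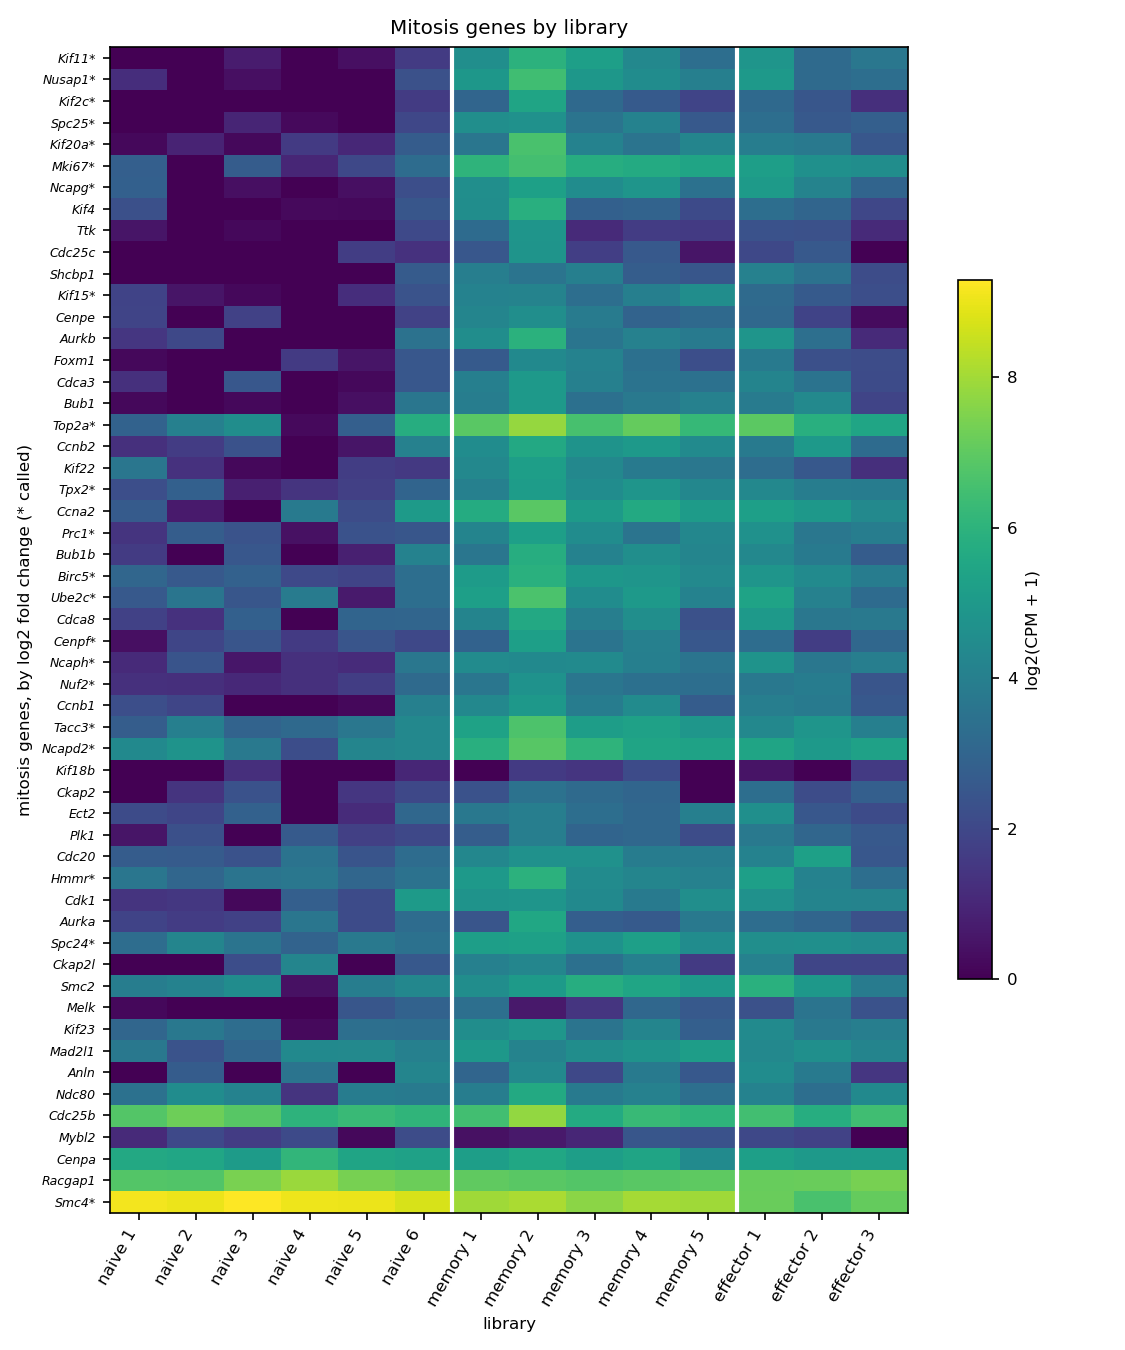
Log2(CPM + 1) (colour) of the 54 mitosis genes (rows, ordered by log2 fold change, called genes with an asterisk) in 6 naive-like, 5 memory-like and 3 effector-like libraries (columns). Most rows are dark in naive-like 1 to 5, lighter in naive-like 6 and lightest in memory-like 2, and Smc4 in the last row runs the other way.

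Of 54 cytosolic ribosomal protein and elongation factor genes tested, 24 were lower and none higher, with a median log2 fold change of -0.32, and 20 to 23 were lower when 1 library was left out. Their summed level did not overlap, at 78490 to 94360 CPM in memory-like and 108200 to 124900 CPM in naive-like libraries. Rpsa, a small subunit gene, was at 3425, 3528, 3571, 3686 and 3569 CPM in memory-like and 5051, 5452 and 6130.5 CPM in naive-like libraries (-0.64 ± 0.06, adjusted p = 0.00022). Rpl5 (-0.63 ± 0.07, adjusted p = 0.00022), Rps4x (-0.51 ± 0.06, adjusted p = 0.00029) and Rpl4 (-0.53 ± 0.07, adjusted p = 0.000926) fell alike, as did Eef1a1, which brings aminoacyl-tRNA to the ribosome, at 12193 ± 667 against 16280.0 ± 809 CPM (-0.42 ± 0.06, adjusted p = 0.00111). Off the list, the growth-related gene Tpt1 (-0.58 ± 0.07, adjusted p = 0.00022) fell too. These genes have many processed copies in the genome, so their counts are uncertain, and Rn45s RNA moved with them, as given above. With Rn45s left out of the counts, 23 of the 54 were lower, and with size factors of the DESeq2 type, 23.

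Activation-related surface and cytoskeletal genes (S100, annexin and galectin list) were higher for 7 of 28 tested. Without memory-like 1 they were 3, without memory-like 2 or 4 they were 4, and without naive-like 6 they were 12. Plac8 was at 473, 606, 655, 420.0 and 549 CPM in memory-like and 221, 256 and 323 CPM in naive-like libraries (1.05 ± 0.13, adjusted p = 0.00035). Ly6a, the interferon-inducible Sca-1, was at 601, 687, 559, 569 and 699 CPM against 109, 175 and 498 CPM (1.46 ± 0.29, adjusted p = 0.00783), with naive-like 6 the highest naive-like library. Cd52, a short surface glycoprotein gene, was higher as well (0.84 ± 0.14, adjusted p = 0.00313).

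Of 18 antigen presentation genes tested, 4 were higher and none lower. The immunoproteasome subunit gene Psmb9 was at 183, 199, 167, 171 and 186 CPM against 94.5, 109 and 134 CPM (0.70 ± 0.13, adjusted p = 0.00588), the proteasome activator gene Psme2 had 0.50 ± 0.11, adjusted p = 0.0172, and the class Ib gene H2-Q7, from a family of near-identical copies, 0.84 ± 0.15, adjusted p = 0.00403. Interferon-stimulated genes were higher for 4 of 40, and for 1 without memory-like 1 and 2 without any 1 of memory-like 3, 4 and 5 or naive-like 2 and 5. Isg20, an interferon-induced exonuclease gene, was at 84.5, 59.6, 32.9, 76.1 and 52.2 CPM against 14.4, 21.4 and 31.7 CPM (1.42 ± 0.27, adjusted p = 0.00692), the opposite of Irf1. Metabolic lists gave few stable calls. The respiratory chain count of 7 of 41 fell to 1 without memory-like 1, to between 2 and 4 without each of the other memory-like libraries and without naive-like 1 to 5. Cox5a, a cytochrome c oxidase subunit gene, was called in each of those runs, at 140.1, 148, 143, 151 and 158 CPM against 81.8, 91.4 and 109 CPM (0.66 ± 0.10, adjusted p = 0.00171). The 2 glycolysis genes called of 22 became 0 without any 1 of memory-like 1, 2, 4 and 5 or naive-like 1, 2, 3 and 5, 1 without memory-like 3, and 4 without naive-like 4 or 6. Ldha, the lactate dehydrogenase gene, was at 1344, 1384, 1268, 1336 and 1289 CPM against 770.2, 955 and 1112 CPM (0.46 ± 0.12, adjusted p = 0.0346), and its call ended without any 1 of 9 libraries. Gapdh did not pass (0.59 ± 0.18, adjusted p = 0.0637). Idi1, an isoprenoid synthesis gene, was the 1 sterol and fatty acid gene of 26 called (1.58 ± 0.32, adjusted p = 0.0103). That is 3.85%, near the 2.78% of all genes.

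**Figure D5:**
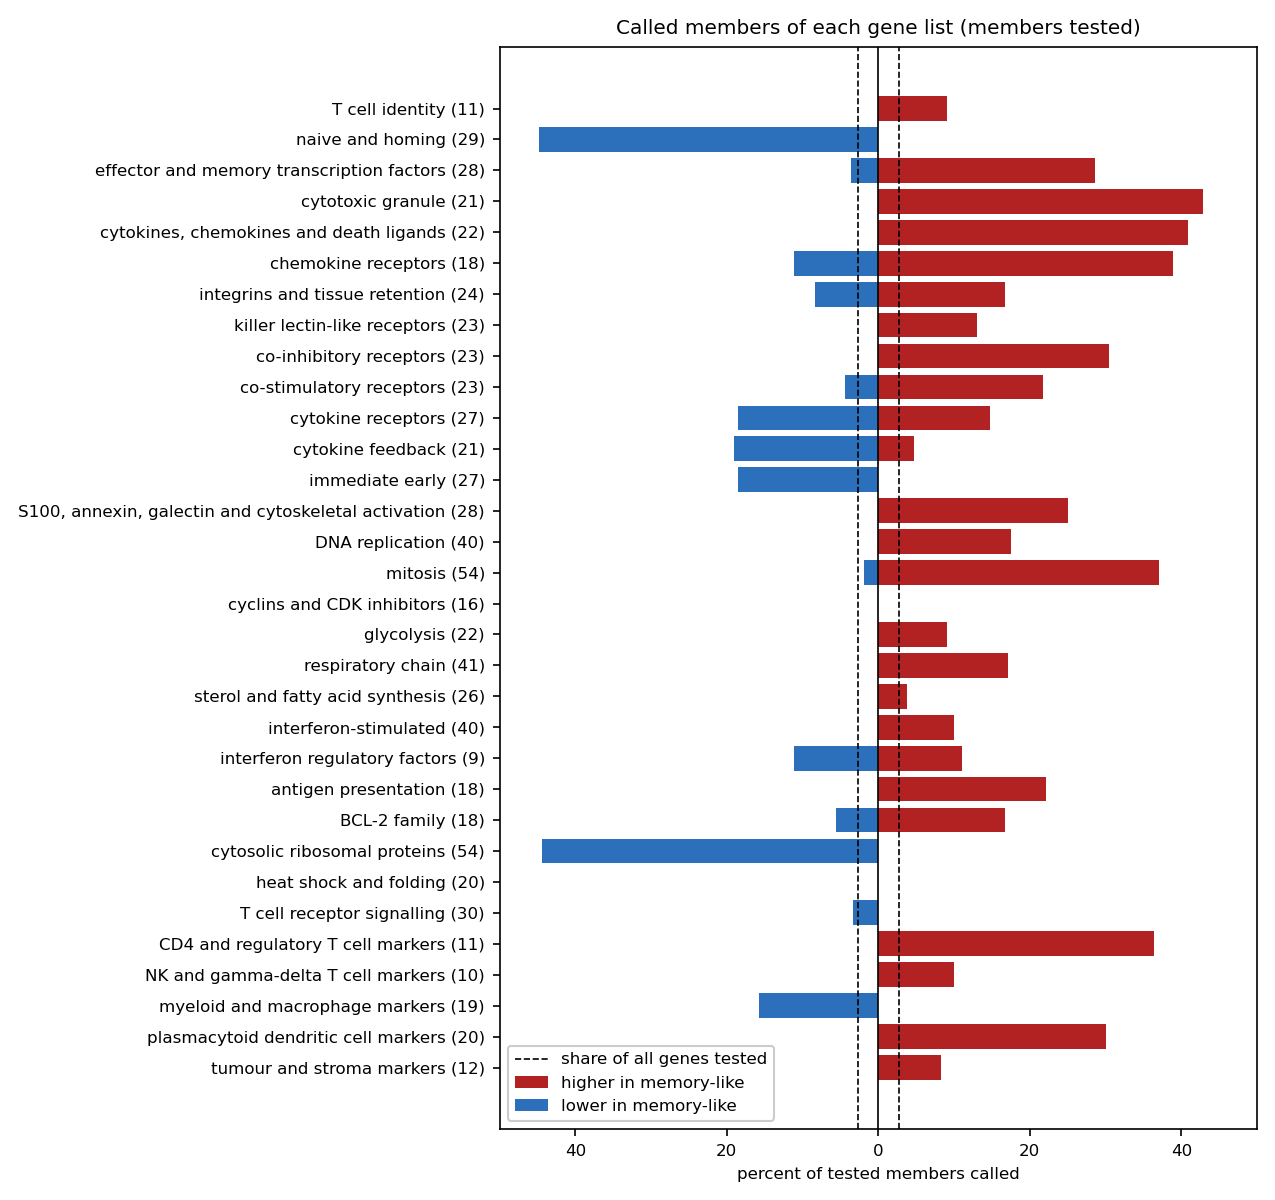
Percent of the tested members of each gene list called higher (red, to the right) or lower (blue, to the left) in memory-like cells, with the number tested in parentheses, for the lists with at least 9 members tested. Dashed lines mark the shares over all genes, 2.78% higher and 2.73% lower; naive and homing genes and ribosomal protein genes extend furthest to the left, and granule, cytokine and chemokine receptor genes furthest to the right.

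Genes on none of the lists were named by their small p and by groups that did not overlap. Pik3ap1, an adaptor that links receptors to PI3K, was at 83.8, 69.9, 86.7, 69.1 and 83.1 CPM in memory-like and 17.8, 24.6 and 41 CPM in naive-like libraries (1.63 ± 0.20, adjusted p = 0.000463). The interferon-induced transcript AW112010 (1.11 ± 0.14, adjusted p = 0.000548), the actin-binding thymosin gene Tmsb4x (0.90 ± 0.11, adjusted p = 0.000523), the NADPH oxidase subunit gene Cyba (0.93 ± 0.12, adjusted p = 0.000585) and the ERK-activated kinase gene Rps6ka1 (1.08 ± 0.16, adjusted p = 0.00164) were higher. Among lower genes, Pde2a, a phosphodiesterase that breaks down cyclic nucleotides, was at 179, 255, 196, 256 and 247 CPM against 458, 622 and 1038 CPM (-1.58 ± 0.18, adjusted p = 0.00022). Crlf3 (-0.92 ± 0.11, adjusted p = 0.00035), Klhdc2, a substrate receptor of a ubiquitin ligase (-1.35 ± 0.18, adjusted p = 0.000558), the splicing factor gene Srsf5 (-0.97 ± 0.14, adjusted p = 0.00108) and Vps37b, an ESCRT-I subunit gene (-1.06 ± 0.15, adjusted p = 0.00112), were lower.

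Some of these genes differed further between memory-like and effector-like cells and others did not. Both comparisons use the same memory-like libraries, so their values are set side by side and not correlated. Between effector-like and memory-like cells, 237 of 12388 genes (1.91%) passed. Tcf7 fell again, to 94.3, 82.4 and 122 CPM in effector-like libraries (-1.60 ± 0.16, adjusted p = 8.42e-05), as did Ccr7 (-2.57 ± 0.36, adjusted p = 0.000915), Dusp10 (-1.02 ± 0.21, adjusted p = 0.0177) and Rpsa (-0.70 ± 0.08, adjusted p = 0.000118). S1pr1 (-0.09 ± 0.20, adjusted p = 0.944) and Lef1 (-0.27 ± 0.22, adjusted p = 0.74) did not pass, and neither did Irf1 (0.22 ± 0.17, adjusted p = 0.721) or Socs3 (-0.24 ± 0.15, adjusted p = 0.626). Gzma was higher in effector-like cells, at 1404, 1282 and 1523 CPM (2.80 ± 0.32, adjusted p = 0.000186), while Gzmk (0.51 ± 0.46, adjusted p = 0.775) and Ifng (0.57 ± 0.38, adjusted p = 0.658) did not pass.

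Plac8 and Cxcr3 were called higher in memory-like cells than in either of the other populations. Plac8 is also on the list of plasmacytoid dendritic cell markers described below. The summed level of that list was 1284 to 3890 CPM in memory-like and 555.5, 668.1 and 523.7 CPM in effector-like libraries, and its part in this comparison was not tested. Plac8 was at 161, 177 and 145 CPM in effector-like libraries, below every memory-like one (-1.75 ± 0.17, adjusted p = 5.99e-05, effector-like minus memory-like), and Cxcr3 was at 94.8, 55.3 and 112 CPM (-1.37 ± 0.25, adjusted p = 0.00822). For Mki67 the effector-like libraries were at 36.1, 24.3 and 22.3 CPM, all below the memory-like libraries, but the difference did not pass (-1.13 ± 0.71, adjusted p = 0.621). Psmb9, at 112, 103 and 154 CPM in effector-like libraries, did not pass either (-0.56 ± 0.16, adjusted p = 0.108).

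Markers of other cells that a sort can carry were measured in the same libraries. Of 20 plasmacytoid dendritic cell genes, 6 were higher in memory-like cells and all 20 had a positive fold change (median 2.03). The 6 became 2 without memory-like 3 or 5, 3 without naive-like 2 or 5, and 1 without both memory-like 3 and 5. Their summed level was 1284 to 3890 CPM in memory-like and 584.7 to 1341 CPM in naive-like libraries. Siglech, a defining marker, was at 65.7, 17.7, 377, 56.2 and 416 CPM in memory-like libraries 1 to 5 and 0, 28.5 and 63.5 CPM in naive-like ones, and missed the threshold at an adjusted p of 0.16. Memory-like 3 and 5 were far above the other libraries. Irf8, a factor of dendritic cells that activated T cells also transcribe, followed the same libraries, at 151, 231, 565, 169.7 and 681 CPM against 37.2, 73.4 and 143 CPM (2.21 ± 0.45, adjusted p = 0.00978), and did not pass without memory-like 3 and 5 (adjusted p = 0.118). Ly6d (30, 63.1, 80.7, 27.6 and 87.9 CPM against 0, 3.29 and 9.61 CPM, 4.08 ± 0.95, adjusted p = 0.0207) lost its call without memory-like 3 (adjusted p = 0.0544) or memory-like 5 (adjusted p = 0.0519). The immunoglobulin J chain gene Igj, on no list, was at 0.174, 30.5, 26.1, 2.15 and 19.4 CPM in memory-like libraries and had 1 count in the 6 naive-like libraries together. Plac8 is also on the plasmacytoid list and kept its call without memory-like 3 and 5 (adjusted p = 0.00394). The part of these markers in the other results was not tested beyond leaving out these 2 libraries, which gave 182 genes higher and 131 lower from 3 memory-like libraries, with 10 naive and homing genes and 15 ribosomal protein genes lower. In that run 13 mitosis, 5 granule, 5 cytokine and death ligand, 4 DNA replication, 2 antigen presentation, 2 respiratory chain and 1 interferon-stimulated gene were higher. Bst2, 1 of the 4 interferon-stimulated genes called with all libraries, is a plasmacytoid marker too. Lower genes numbered 2 of the cytokine feedback and 3 of the immediate early list. Besides Irf8, 12 genes described above lost their call, at adjusted p-values of 0.0502 for Pdcd1, 0.055 for Jak1, 0.0669 for Ccr7, 0.0766 for Tnf, 0.0837 for Itgax, 0.0854 for Socs1, 0.0871 for Lag3, 0.0999 for Tbx21, 0.103 for Il7r, 0.133 for Cx3cr1, 0.17 for Prdm1 and 0.0706 for Psme2. The metabolic genes Ldha (0.0986) and Idi1 (0.133) and the markers Ly6d (0.159), C1qa (0.2), C1qb (0.053) and C1qc (0.164) lost theirs, and Il2 and Igj were not tested there. The log2 fold change of Irf8 was 1.25 in that run and that of Idi1 0.98, against 1.58 with all libraries, while those of Pdcd1 (1.54), Tnf (1.12) and Lag3 (2.62) stayed near their values with all libraries.

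CD4 T cell genes were present at low levels. Of 11 markers of CD4 and regulatory T cells, 4 were higher in memory-like cells and none lower, with a summed level of 256.4 to 404.3 CPM against 168.8 to 287.9 CPM, and 1 to 3 were called when 1 library was left out. Cd4 was at 15.9, 14.9, 37.4, 13.4 and 66.5 CPM against 0, 3.14 and 32.1 CPM (2.03 ± 1.002, adjusted p = 0.278). Its highest memory-like libraries were 3 and 5, those richest in Siglech, and its log2 fold change was 1.02 without them. Foxp3, the regulatory T cell factor gene, was at 17.6, 13.2, 0, 1.97 and 0 CPM in memory-like libraries. In naive-like ones it was at most 0.163 CPM, so it came from memory-like 1, 2 and 4. Foxp3 was tested in only 8 of the 11 runs that left out 1 library and was called in 3 of them. Its call ended without any 1 of naive-like 1, 2, 3, 5 and 6, and it was not tested without the 3 libraries that stood apart. Il2ra, which regulatory T cells also express, was at 16.4 and 34.2 CPM in memory-like 3 and 5, where Foxp3 was at 0. Of 19 myeloid markers tested, 3 were lower, the complement genes C1qa, C1qb and C1qc of macrophages. C1qb was at 0, 9.72 and 76 CPM in naive-like libraries and had 1 count in memory-like libraries. C1qc was at 0, 1.77 and 26.7 CPM in naive-like libraries and at 0 counts in memory-like ones, which allows up to 0.102 CPM over the group (3 counts, counting error only). The call of C1qb held without each library in turn but not without memory-like 3 and 5, and those of C1qa and C1qc ended without any 1 memory-like library. C1qc was tested in only 8 of the 11 runs that left out 1 library. Lyz2, a myeloid lysozyme gene, was at 0, 392, 0, 0 and 0 CPM against 0, 247 and 641 CPM (adjusted p = 0.663), and the summed myeloid markers were at 573.6 to 2274 against 228.6 to 2339 CPM. Krt8, a keratin gene of carcinoma cells, was highest in naive-like 6, at 205 CPM, and memory-like 2, at 50 CPM, with 4.53, 8.36 and 205 CPM over the naive-like libraries (adjusted p = 0.605). The summed tumour and stroma markers were at 104.7 to 197.4 against 70.5 to 582.6 CPM, with 1 of 12 called. Of 10 natural killer and gamma-delta T cell markers tested, 1 was higher (summed level 545.5 to 854.8 against 358.4 to 596.4 CPM). B cell markers summed to 50.5 to 114.9 against 16.5 to 35.8 CPM, with Ly6d the 1 of 3 tested that passed, and red cell markers to 5.70 to 12.97 against 0 to 400.8 CPM, with none of the 1 tested called.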

How the data were processed

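Bulk RNA was measured in 5 memory-like, 6 naive-like and 3 effector-like libraries. Per the submitters' processing notes, the tools were TopHat, RSEM and DESeq and the build mm9, without role or version. The deposited table holds expected counts, unscaled, and 22.6% of them were fractional and were rounded. It has 21614 rows; 4 that repeat a name were dropped, and 27 names had turned into dates. No coordinates were taken from the table, since the reference at hand is another build. Promoter windows came from RefSeq (GRCm38.p6), matched by symbol.

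All 14 libraries were fitted with edgeR 4.0.16 in R 4.3.3 (filterByExpr, TMM, quasi-likelihood test, 1 mean per group, no block), leaving 12388 genes. A call is an adjusted p (Benjamini-Hochberg, over all genes tested) under 0.05. DESeq2 1.42.0 was an alternative, besides other scaling, no filter, Rn45s left out, blocks and left-out libraries. The fit was tested on simulated data. CPM are counts scaled to TMM-corrected library sizes, and depth limits the precision of genes with few counts.

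The groups come from the labels. The comparison, the 35 gene lists and the genes to name were chosen with earlier results of these data known. Named were genes of the sort, up to 5 called members of a list per direction with the smallest p and 2 that were not called, 12 genes per direction on no list, and 30 fixed genes of T cell states; some are not reported here. Lists are described by counts and medians only.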

Additional observations from a re-analysis of the deposited data

Results flagged for a closer look

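Among 11 libraries, a library was set apart for a gene when its gap to the nearest library of its own group took up most of the range of that group (Dixon's test at 95%), which chance alone does for about 1 in 20 groups. A library was set apart in 29 of the 257 combinations of a gene and a group that were tested, and the values are given without an explanation.

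Naive-like 1 was the highest naive-like library for Zbtb32 (1.17 CPM, all others 0), Il2 (0.584 CPM), Cxcr3 (181 CPM, next 115), Klrk1 (335 CPM) and H2-Q7 (286 CPM). Naive-like 3 was the highest for Lag3 (34.4 CPM), Il2ra (9.57 CPM) and Cd4 (32.1 CPM, next 4.35), and the lowest for Tnfsf14 (5.71 CPM) and Fgl2 (12.4 CPM). Naive-like 4 was the highest for Hif1a (292 CPM), Tbx21 (159 CPM), Tnfrsf9 (122 CPM, next 25.5) and Vps37b (1781 CPM), and the lowest for Prdm1 (0.49 CPM). Naive-like 5 was the highest for Klrg1 (2.1 CPM). Naive-like 6 was the highest for Kif11 (2.04 CPM), Ly6a (498 CPM), Igj (0.127 CPM, all others 0) and Krt8 (205 CPM, next 11.4).

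Among memory-like libraries, number 2 was the highest for Fgl2 (349 CPM, next 170.0), Ska1 (23 CPM), C1qb (0.184 CPM, all others 0), Lyz2 (392 CPM, all others 0) and Krt8 (50.03 CPM). Memory-like 5 was the highest for Klrg1 (20.7 CPM) and Gp49a (399.7 CPM) and the lowest for Tmsb4x (1045 CPM). Memory-like 1 was the highest for C1qa (0.348 CPM, all others 0).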

How the results depend on the processing

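Counts of genes are given as higher and lower in memory-like cells, 345 and 338 as reported. Leaving out 1 memory-like or naive-like library at a time gave 160 to 430 higher and 180 to 385 lower genes, and leaving out 1 effector-like library, which shares in the estimate of spread (an alternative added after the data were seen), 282 to 329 and 285 to 330. DESeq2 called 662 and 542. Without the 2 memory-like libraries richest in Siglech, chosen after their values were seen, the counts were 182 and 131 from fewer samples. Libraries with the same number in titles or library names did not deviate from their group means together (correlations of -0.083 to 0.108). This cannot decide whether they came from the same mice, and the labels do not say. A replicate block by title number gave 253 and 248, against 349 and 374 for the same 10 libraries without it; 1 of 5 memory-like libraries correlated best with its own number. A replicate block by the number in the library name gave 80 and 94, against 237 and 260 without it. Settings with other scaling, filters or dispersion gave 278 to 395 and 286 to 348, and no gene called as reported was called in the opposite direction under any setting. The median change of a gene's log2 fold change from the reported fit was at most 0.0346 in size. The median log2 fold change itself, -0.0065 as reported, ranged from -0.0389 without memory-like 3 and 5 to 0.0433 without naive-like 6. Of 106 called genes described here, 94 kept the call whichever of the 11 libraries was left out, and 85 kept it without memory-like 3 and 5.

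The sign of 5 genes that did not pass changed: Cd3e ranged from -0.024 without memory-like 1 to 0.158 without memory-like 3, Il2rb from -0.044 without memory-like 5 to 0.109 without memory-like 2, and Cd69 from -0.021 without naive-like 4 to 0.113 without naive-like 5. Cd69 was -0.056 without the 3 libraries that stood apart, and Cd44 -0.029 without memory-like 3 and 5. Krt8, highest in naive-like 6, was 0.75 with the title-number block, 1.17 for the same 10 libraries without it, 0.45 without the 3 libraries that stood apart and ranged from -2.11 without memory-like 2 to 1.16 without naive-like 6 when 1 library was left out. In simulated data with the depth and spread of these libraries, 30% of genes changed 2-fold and 58% of genes changed 4-fold were called, so a gene that did not pass may still differ.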
